A study of Mus musculus with 12 samples.

Results

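How the heart's response to aortic banding differed between mice lacking the apelin gene (knockout, KO) and wild-type mice (WT) was measured for each probe set as the KO banding effect minus the WT banding effect. The banding effect is the mean of the banded arrays minus the mean of the sham arrays, on the log2(intensity + 16) scale, so a positive difference means that banding raised the signal more, or lowered it less, in KO. All 12 of the 12 arrays of the series enter, and the difference was computed for the 34945 of 45101 probe sets that the platform annotation assigns to a single gene. Hearts of WT sham, WT banded, KO sham and KO banded mice were each represented by 3 arrays, which the labels call biological replicates. Aortic banding constricts the aorta and so raises the pressure that the left ventricle works against, and sham mice are its surgical controls. The KO mice carry a deleted Apln gene. Strain, age, sex, the time between operation and sampling, the deleted part of Apln and the part of the heart taken are not stated in the labels. Where values of 3 arrays are listed, they stand in the order of the replicate numbers in the labels, which did not pair samples across groups.

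Under pressure overload, ventricular muscle cells enlarge, switch part of their genes towards those used in the fetal heart, and turn from fatty acids towards glucose as fuel. Fibroblasts of the heart become activated and lay down collagen and other matrix, which growth factors such as TGF-beta promote. Apelin is a secreted peptide that acts through a G-protein-coupled receptor encoded by Aplnr, and in the heart and vessels it is known as a stimulator of contraction and a dilator.

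Some arrays stood apart before any comparison was made. The probe set of Apln, the targeted gene, read 333, 323 and 212 in WT sham, 205, 223 and 255 in WT banded, 63.7, 111 and 85.4 in KO sham and 271, 122.7 and 160.1 in KO banded. The array labelled KO banded 1 was therefore at 271, inside the WT range of 204.7 to 333, and its Apln value went against its label, while the other 5 KO arrays read 63.7 to 160.1. The deleted part of Apln is not known, and a probe set outside it checks nothing about the labels. The array is named here by its label, KO banded 1, and every direction drawn from the KO banded group with 12 arrays includes it. The same array had a summed level of 2464 over 10 airway and lung markers, against at most 432.5 in the other 11, and the lowest correlation with the other arrays of its group (r = 0.9662, across probe sets). One further array, WT banded 3, read 1255 for Xist, which is expressed from the inactive X chromosome, against 43.3 to 89.2 elsewhere, and 0.47 for the Y-linked Eif2s3y, against 270.4 to 394.8 elsewhere. The summed level of 8 atrial markers ranged from 845.3 to 28590 and differed most within WT banded. Ventricular markers were present in every array, with a summed level of 80850 to 152400 over 10 genes. In bulk tissue, fewer cells of a type and less RNA per cell cannot be told apart.

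With all 12 arrays, no probe set differed between the genotypes in its response to banding at an adjusted p under 0.05 (0 of 34945, 0%; limma, Benjamini-Hochberg adjustment over all of them). At an unadjusted p under 0.05 there were 2582 probe sets, 7.39% of the total, of which 1374 had the higher banding effect in KO and 1208 the lower. The median difference was 0.01, its median standard error (SE) was 0.26 and the median 95% interval, which is unadjusted, reached 0.56 to either side. Differences below about that size were not resolvable for a typical probe set even without adjustment, and the adjusted test asks for larger ones. Differences above 1, a 2-fold gap between the genotypes' banding effects, were seen for 1.67% of probe sets. The smallest adjusted p was 0.0765, for a probe set of Prune2, and the next was 0.454. Each genotype taken alone gave an unequal picture: banding passed the test for 233 probe sets in KO (0.667%) and for 0 in WT, where 1951 had an unadjusted p under 0.05. The KO count ran from 2, without KO banded 2, KO banded 3 or KO sham 3, to 1735, without KO banded 1, and moved by over 1.5 times without each of the other arrays except WT sham 3. That contrast of counts is no test of a difference, which the 0 above is. Across probe sets, the banding effects had an SD of 0.32 in KO and 0.24 in WT, and the effects of the genotypes, which share no arrays, correlated at r = 0.191 over all probe sets and 0.294 over the 20967 in the upper 60% by mean intensity.

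**Figure D1:**
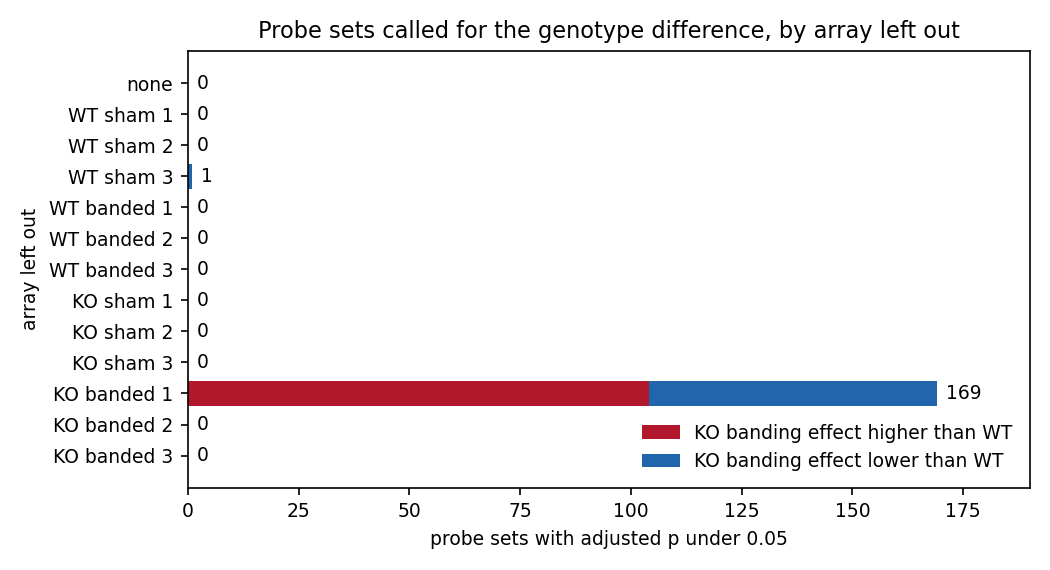
Number of probe sets (x axis) whose banding effect differed between KO and WT at an adjusted p under 0.05, with the full set of arrays and with each array left out in turn (y axis); red, higher in KO, blue, lower in KO. The count is 0 with all arrays, 1 without WT sham 3 and 169 without KO banded 1, and 0 in each of the other 10 fits.

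The count depended on a single array. Leaving out the array labelled KO banded 1 gave 169 probe sets (0.484%) of 143 genes, 104 with the higher banding effect in KO and 65 with the lower. Leaving out any of the other 11 arrays gave 0, apart from 1 probe set, of Prune2, without WT sham 3. All 169 had the same sign with 12 arrays, as did 31599 of all 34945. Of the 169, 148 had an unadjusted p under 0.05 there, as did 2582 of all. The fits share 11 arrays, so this likeness largely follows from the choice and supports nothing by itself. The fit with 11 arrays rests on KO banded 2 and 3 alone for the KO banded group, and it was chosen for description after these counts were seen, so where a gene has a pair of differences below, the first is with 12 arrays and the other with 11, and a difference given alone names its fit. Leaving out KO banded 1 and WT banded 3 together left 52. With each other array left out beside KO banded 1, the count ran from 37 (KO banded 2) to 239 (WT sham 3), and it fell by over 1.5 times for every array except WT sham 2 and 3.

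For the 169 probe sets, KO banded 1 lay nearer to the KO sham mean than to the mean of KO banded 2 and 3 in the median. Its signal lay at a median of 24.9% of the way from the KO sham mean to the mean of KO banded 2 and 3 on the log2 scale for those higher in KO (interquartile range 10.9 to 35.9%), and at 27.4% for those lower (17.6 to 39.2%). It was nearer to the WT banded mean than to KO banded 2 and 3 in 100 of the 104 and 57 of the 65. Its value fell inside the range of the 3 WT banded arrays for 37 of the 104 and 19 of the 65. Averaged over the 104 probe sets, the log2 level was 7.44 to 7.48 in KO sham, 7.73 to 7.81 in WT banded, 7.85 in KO banded 1, and 9.15 and 9.06 in KO banded 2 and 3. These probe sets were chosen without that array, so its distance from KO banded 2 and 3 is partly set by the choice. The part of the Apln and airway signals of that array in these positions was not tested.

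**Figure D2:**
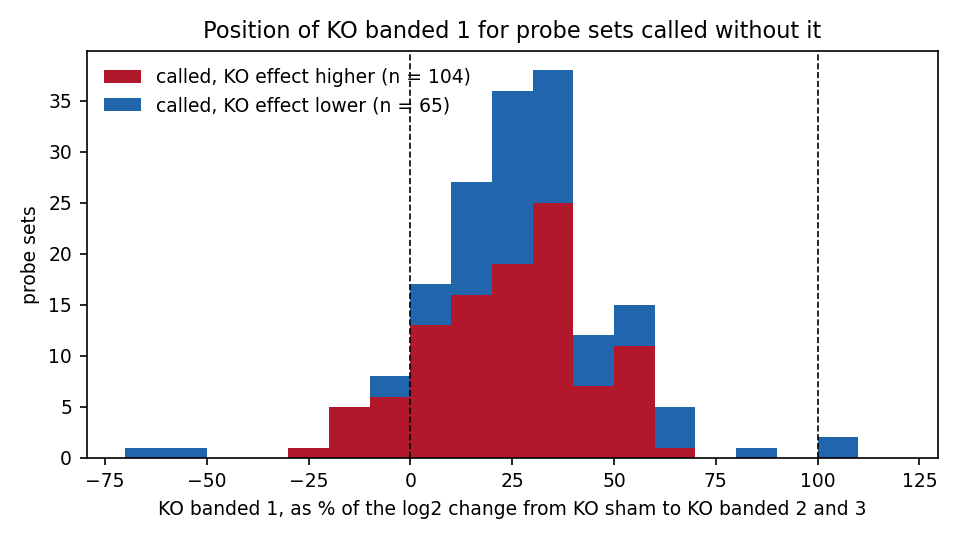
Position of KO banded 1 for the probe sets called without it, as a percentage of the log2 change from the KO sham mean (0, dashed) to the mean of KO banded 2 and 3 (100, dashed); the y axis counts probe sets, with 104 higher in KO in red stacked with 65 lower in KO in blue. The medians are 24.9% and 27.4%, and 2 probe sets lie past 100%.

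In the fit without KO banded 1, the called differences came mainly from changes in KO with little change in WT. The 104 higher probe sets had a median banding effect of 1.58 in KO and 0.16 in WT, and the 65 lower ones had -1.22 in KO and -0.07 in WT. WT banding moved a probe set by less than 0.5 in either direction in 151 of the 169, and in 33290 of all 34945. Little change in WT was thus common to most probe sets. The sham groups also differed a little in the opposite direction: the median of KO minus WT was -0.18 in sham and 1.23 in banded hearts for the higher set, and 0.21 and -0.99 for the lower set. The measured difference is KO minus WT in banded hearts less KO minus WT in sham hearts. Choosing probe sets by it in these same arrays favours opposite signs in sham, so these medians are partly set by the choice. The WT effect had the opposite sign to the KO effect in 33 of the 104 and 28 of the 65, and in 15597 of all 34945.

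**Figure D3:**
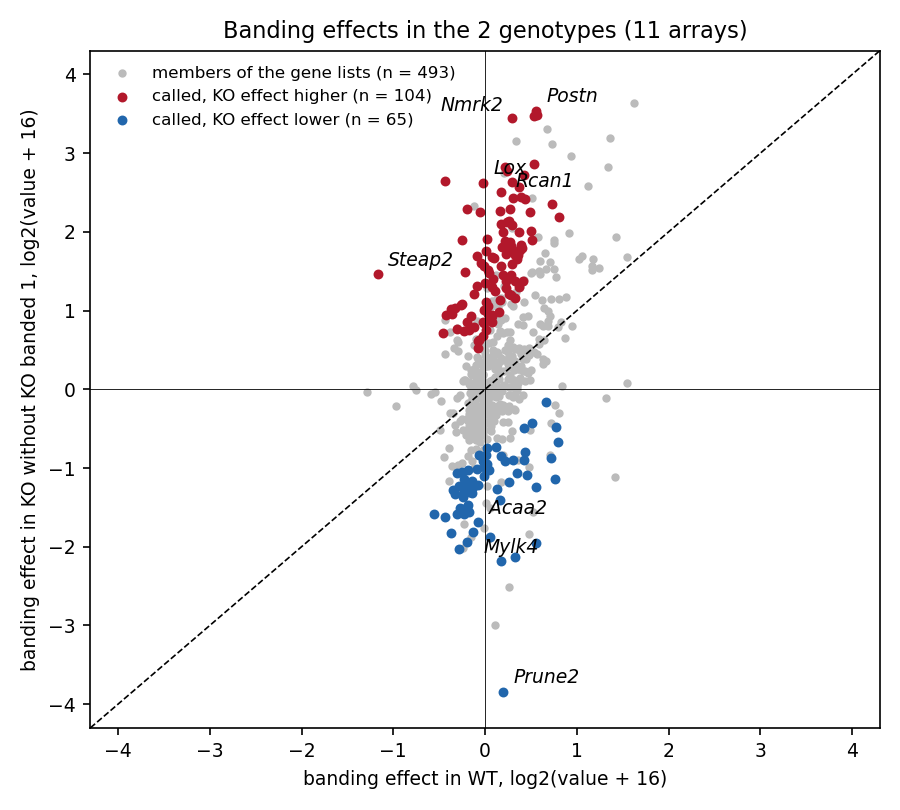
Banding effect in WT (x axis) against that in KO without KO banded 1 (y axis), both on the log2(intensity + 16) scale, for 493 listed genes (grey) and for the probe sets called for the genotype difference (red, 104 higher in KO; blue, 65 lower in KO). The dashed line marks equal effects. The called points spread along the y axis while 151 of the 169 stay within 0.5 of 0 on the x axis, as do 33290 of all 34945 probe sets.

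Rcan1, Lox and Synpo2l shared the smallest adjusted p without KO banded 1. Rcan1 encodes a regulator of calcineurin, the calcium-dependent phosphatase that drives hypertrophic growth through NFAT transcription factors. The leading Rcan1 probe set read 510.1, 455 and 356 in WT sham, 488, 450.5 and 606 in WT banded, 330.2, 279.9 and 314 in KO sham and 386, 2316 and 2243 in KO banded. KO banded 2 and 3 stood above the other 10 arrays, and KO banded 1 lay between KO sham and WT banded. The genotype difference was 1.77 (SE 0.70, adjusted p = 0.631) with 12 arrays and 2.61 (SE 0.21, adjusted p = 0.0012) with 11. A second Rcan1 probe set had the same shape, with 1.19 (SE 0.58, adjusted p = 0.691) and 1.75 (SE 0.39, adjusted p = 0.0856), and did not pass. RefSeq (build GRCm38.p6) gives Rcan1 2 promoters on the minus strand of chromosome 16, and both are shown because the gene is one of these 3 and its transcripts start at separate places. Each is the 250 bases before a transcript start, with the motif found by search in capitals (an E-box, CACGTG, in the upstream one and an AP-1 motif, TGANTCA, in the other).
Rcan1 upstream start, chr16:92466170-92466419: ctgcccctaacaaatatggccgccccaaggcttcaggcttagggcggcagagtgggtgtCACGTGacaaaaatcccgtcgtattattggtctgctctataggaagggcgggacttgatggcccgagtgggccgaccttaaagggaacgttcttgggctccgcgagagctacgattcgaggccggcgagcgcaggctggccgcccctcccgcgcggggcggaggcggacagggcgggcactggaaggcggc
Rcan1 internal start, chr16:92400079-92400328: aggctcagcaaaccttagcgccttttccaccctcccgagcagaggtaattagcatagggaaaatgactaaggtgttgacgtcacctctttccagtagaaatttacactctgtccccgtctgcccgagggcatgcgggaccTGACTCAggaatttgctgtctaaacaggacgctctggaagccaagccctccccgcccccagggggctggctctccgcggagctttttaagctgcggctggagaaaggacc
The E-box begins 191 bases before its start and the AP-1 motif 110 bases before the other. The arrays do not tell which start was used. The AP-1 motif, on either strand, was in 9.2% of 87 such promoters of the genes called higher (66 of 86 genes matched), in 3.64% of 55 promoters of the genes called lower, and in 5.62% of 18109 promoters of all genes fitted. The E-box was in 8.05%, 5.45% and 7.38%, and the M-CAT motif (CATTCC), bound by TEAD factors in muscle genes, in 10.3%, 14.5% and 11.5%. A match describes letters and not a bound site.

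Genes of the hypertrophy and fetal program mostly had the larger banding effect in KO, but the classical load markers did not pass in either fit. Over 16 measured genes of 18 listed, the median difference was 0.90 with 12 arrays and 1.19 with 11, against 0.01 over all 18193 genes in both. With 12 arrays, 7 had an unadjusted p under 0.05 with the higher effect in KO and 0 with the lower, where the shares over all genes were 4.42% and 3.29%. With 11 arrays, 4 were called higher and 0 lower, against 0.335% and 0.22% of all genes. The lists were chosen with earlier results of these data known, so a count above the share of all genes may partly follow from that choice. The 4 called were Nmrk2, Enah, Fhl1 and Meox1. Nmrk2 encodes a kinase of nicotinamide riboside that feeds NAD synthesis, and it read 98.9, 96.2 and 114 in WT sham, 88.95, 124 and 192 in WT banded, 140.4, 71.01 and 85.8 in KO sham and 186, 903 and 1604 in KO banded. KO banded 2 and 3 were far above every other array, while KO banded 1 was within the WT banded range. Its difference was 2.30 (SE 0.80, adjusted p = 0.569) and then 3.16 (SE 0.42, adjusted p = 0.0141). Fhl1, a LIM-domain protein of the sarcomere that takes part in stretch sensing, read 2307, 2362 and 2406 in WT sham, 2908, 2502 and 2689.7 in WT banded, 2750.3, 2956 and 2018 in KO sham and 4322, 7007 and 6982 in KO banded, and here all 3 KO banded arrays were above the other 9. Its difference was 1.03 (SE 0.26, adjusted p = 0.53) and 1.26 (SE 0.20, adjusted p = 0.0261). Abra, an actin-binding activator of serum response factor signalling, had the higher values in banded hearts of both genotypes, with a difference of 1.15 with 12 arrays and 1.45 (SE 0.31, adjusted p = 0.0741).

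Among the classical markers, Myh7, Nppb and Acta1 were mostly higher in banded hearts of either genotype, with wide scatter among shams. For Myh7 and Nppb, WT sham and WT banded arrays overlapped. Myh7, the slow myosin heavy chain, read 5182, 1109.5 and 1361 in WT sham, 10045, 6718 and 1918 in WT banded, 1132, 1656 and 1128 in KO sham and 9203, 9324 and 9091 in KO banded. The KO banded arrays lay close together, KO banded 1 included, while WT banded spread from 1918 to 10045.0. Its difference was 1.49 (SE 0.83, adjusted p = 0.728) and 1.49 (SE 0.91, adjusted p = 0.605). Nppb, which encodes the natriuretic peptide BNP, read 6874, 2060.2 and 2351 in WT sham, 6296, 6654 and 6660.1 in WT banded, 4240.4, 1298 and 3159 in KO sham and 4999, 8018 and 8390.3 in KO banded, and WT sham 1 alone was as high as the banded arrays. Its difference was 0.40 (SE 0.65, adjusted p = 0.923), with a 95% interval of -1.01 to 1.81, and 0.64 (SE 0.68, adjusted p = 0.809) with 11 arrays. Acta1, skeletal actin, read 3512, 1974 and 3538 in WT sham, 7452, 7932 and 4748 in WT banded, 4903, 3336 and 1469 in KO sham and 8138, 8235 and 8976 in KO banded, and its difference was 0.38 (SE 0.52, adjusted p = 0.904) and 0.40 (SE 0.58, adjusted p = 0.869). For Nppa, the atrial peptide ANP, the difference was -0.15 (SE 0.70), for Myh6, the fast myosin heavy chain, -0.18 (SE 0.31), and for Atp2a2, the calcium pump of the sarcoplasmic reticulum, -0.24 (SE 0.30), each with 12 arrays. These are the brightest probe sets. The dimmer ones of Atp2a2 were all negative too, from -0.12 to -0.76 with 12 arrays, and none passed in either fit. At the brightest probe sets, the sign of Nppa, Nppb, Acta1, Myh6 and Atp2a2 turned when single arrays were left out. KO banded 1 was above every WT banded array for Acta1 (8138) and below every one of them, inside the range of the shams, for Nppb (4999).

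Of the lists, which were chosen with earlier results of these data known, extracellular matrix genes held the most called genes. Of 41 measured genes of 42 listed, 36 had the higher banding effect in KO by value with 12 arrays, with a median of 0.68, and 14 had an unadjusted p under 0.05, all higher, where the share over all genes was 4.42%. With 11 arrays the median was 1.04 (1.48 in KO, 0.24 in WT), 13 were called higher and 0 lower (0.335% and 0.22% of all genes), and 29 had an unadjusted p under 0.05 in the higher direction and 1 in the lower, where the share over all genes was 6.16% higher and 5.73% lower. The sham groups differed by -0.17 in the median, KO below WT. The mean log2 level over the list was 8.37 in KO banded 1, against 9.84 and 9.52 in KO banded 2 and 3 and 8.57 to 8.68 in WT banded.

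Among enzymes that cross-link collagen and elastin, Lox, lysyl oxidase, read 75.4, 67.9 and 80.05 in WT sham, 81.2, 74.7 and 63.9 in WT banded, 54.98, 58.6 and 44.03 in KO sham and 58.5, 448 and 365 in KO banded. KO banded 2 and 3 did not overlap any other array, KO banded 1 was within the KO sham range, and WT sham and WT banded overlapped. Its difference was 1.81 (SE 0.70, adjusted p = 0.625) with 12 arrays and 2.65 (SE 0.22, adjusted p = 0.0012) with 11; a second Lox probe set was also called (1.92, adjusted p = 0.0369), and the third, much dimmer, was not (0.67, adjusted p = 0.328), both with 11. Loxl1, a relative that acts on elastin, read 612, 519 and 427 in WT sham, 629, 615 and 513 in WT banded, 355, 369.5 and 384 in KO sham and 558, 1201 and 1048 in KO banded, where KO banded 1 was above KO sham but within WT banded. Its difference was 1.06 (SE 0.32, adjusted p = 0.564) and 1.39 (SE 0.19, adjusted p = 0.0147). P4ha1, a subunit of the enzyme that hydroxylates proline in collagen, had 2 probe sets, both called, at 1.03 and 1.38 for the brighter and 0.94 and 1.39 for the other.

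Postn encodes periostin, a matrix protein made by activated fibroblasts. It read 590.4, 303 and 411 in WT sham, 634, 627 and 609 in WT banded, 356, 354 and 365 in KO sham and 639, 4719 and 3978 in KO banded. WT banded arrays lay within 609 to 634 and KO banded 1 was at 639, at the WT banded level, while the other KO banded arrays were several times as high. The difference was 2.07 (SE 0.78, adjusted p = 0.608) and 2.98 (SE 0.27, adjusted p = 0.00163). Col5a2, a fibril collagen chain, read 97.7, 84.8 and 74.4 in WT sham, 126, 96.7 and 103 in WT banded, 45.4, 43.97 and 51.4 in KO sham and 87.7, 446 and 315 in KO banded, with KO sham below WT sham in every array, and its difference was 1.71 (SE 0.56, adjusted p = 0.564) and 2.35 (SE 0.24, adjusted p = 0.00305). Other fibril collagens had smaller differences at their brightest probe sets: Col3a1 differed by 0.95 (SE 0.42, adjusted p = 0.669) and 1.38 (SE 0.25, adjusted p = 0.0455), and Col1a1 by 0.68 (SE 0.36, adjusted p = 0.71) and 0.98 (SE 0.29, adjusted p = 0.201), which did not pass. A dimmer probe set of each had a larger difference and did not pass. It was 1.54 and 2.06 (adjusted p = 0.0522 with 11 arrays) for Col3a1 and 1.75 and 2.18 (adjusted p = 0.0642) for Col1a1. Col8a1, a short-chain collagen, was called with 2 of its 3 probe sets (1.40 and 2.12, and 1.63 and 2.33), and the dimmest did not pass (1.91 with 11 arrays, adjusted p = 0.0544).

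Eln encodes elastin and read 244, 223 and 258 in WT sham, 302, 173 and 238 in WT banded, 145, 163 and 115 in KO sham and 186, 868 and 604 in KO banded, and KO sham was below WT sham in every array. Its difference was 1.68 (SE 0.57, adjusted p = 0.564) and 2.30 (SE 0.29, adjusted p = 0.011). Mfap4, which binds elastic fibres, was near the floor in sham hearts and read 3.75, 5.20 and 4.03 in WT sham, 16.2, 18.04 and 7.13 in WT banded, 3.39, 9.58 and 6.52 in KO sham and 10.5, 333 and 161 in KO banded, so its difference of 1.87 (SE 0.93, adjusted p = 0.695) and 2.94 (SE 0.38, adjusted p = 0.0127) depends on the pseudocount of 16 and understates the fold. Ltbp2, a latent TGF-beta binding protein of elastic microfibrils, differed by 1.82 (SE 0.97, adjusted p = 0.713) and 2.92 (SE 0.43, adjusted p = 0.0187). Mfap5 (0.79 and 1.38 for its brighter probe set), Itgbl1 (1.92 and 2.53) and Thbs4 (1.31 and 1.99) were also called, as were, outside the list, 1 of 2 probe sets of Fbln2, fibulin-2 (0.99 and 1.49), and 1 of 8 of Vcan, versican (1.09 and 1.49). Ccn2, a matricellular target of TGF-beta, read 858, 781 and 2521 in WT sham, 1757, 2536 and 1749.7 in WT banded, 876, 599 and 550.5 in KO sham and 1616, 5612 and 6147 in KO banded, and its difference of 1.78 (SE 0.70, adjusted p = 0.631) and 2.39 (SE 0.55, adjusted p = 0.0898) did not pass. WT sham 3 was as high as WT banded for this gene. Members with small differences by value included Dcn (-0.25), Lum (-0.24), Timp2 (-0.09) and Col14a1 (0.02), all with 12 arrays.

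Markers of resting fibroblasts did not follow the matrix genes in the median. Over 12 such markers the median difference was -0.11 with 12 arrays and -0.01 with 11. In either fit 0 were called. With 11 arrays 0.335% of all genes were called higher and 0.22% lower, so 0 of 12 says little. With 11 arrays 2 had an unadjusted p under 0.05 with the higher effect in KO and 0 with the lower, beside 6.16% and 5.73% of all genes. Their summed level was 22000 and 20860 in KO banded 2 and 3, 19010 to 26200 in WT banded, 16410 to 18870 in KO sham and 16040 in KO banded 1, the lowest of all arrays. The macrophage sum was 6190 and 6266 in KO banded 2 and 3, 4760 to 6801 in WT banded and 3930 in KO banded 1, again the lowest. Over 13 macrophage markers the median difference was 0.12 and 0.29, with 0 called. With 11 arrays 1 had an unadjusted p under 0.05 with the higher effect and 0 with the lower.

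Tgfb2, Hbegf, Plat, Itgb5, Itga5, Met and Adcy7 belong to no common list and are given because they were called without KO banded 1. Tgfb2, a TGF-beta ligand, had 4 probe sets, of which 3 were called and the dimmest was not (1.25 with 11 arrays, adjusted p = 0.0833). The brightest read 87.3, 91.4 and 149.9 in WT sham, 122, 154 and 119.7 in WT banded, 69.3, 84.04 and 91.5 in KO sham and 194, 433 and 389 in KO banded, with all 3 KO banded arrays above the other 9 and KO banded 1 lowest of them. Its difference was 1.53 (SE 0.37, adjusted p = 0.477) and 1.87 (SE 0.27, adjusted p = 0.0187). Hbegf, an EGF-family ligand that is shed from the cell surface, read 173, 148 and 150.4 in WT sham, 163, 204 and 182 in WT banded, 124, 148 and 129 in KO sham and 196, 472 and 715 in KO banded, and differed by 1.30 (SE 0.45, adjusted p = 0.569) and 1.80 (SE 0.22, adjusted p = 0.011). A second, brighter Hbegf probe set did not pass, with 0.88 and 1.40 (adjusted p = 0.0569 with 11 arrays). Plat, the tissue plasminogen activator, had one of the smallest p-values with 12 arrays and read 247, 214 and 202 in WT sham, 237, 181 and 189 in WT banded, 134, 129 and 133 in KO sham and 215, 335 and 316 in KO banded. KO sham was below WT sham in every array, and KO banded 2 and 3 were above every WT array. Its difference was 1.14 (SE 0.22, adjusted p = 0.454) and 1.33 (SE 0.17, adjusted p = 0.0127). A second, much dimmer Plat probe set did not share it, with -0.02 and -0.15 (adjusted p = 0.967 with 11 arrays). Itgb5, an integrin subunit, differed by 0.75 (SE 0.16, adjusted p = 0.454) and 0.88 (SE 0.13, adjusted p = 0.0196), and its other 3 probe sets had 0.51, 0.75 and 1.01 with 12 arrays and did not pass in either fit. Itga5, the alpha subunit of the fibronectin receptor, and Met, the receptor of hepatocyte growth factor, were each called with 1 probe set (0.84 and 1.14 for Itga5, 1 of 4; 1.36 and 1.61 for Met, 1 of 2). Adcy7, an adenylyl cyclase, was called with 2 of its 3 probe sets (1.41 and 1.78, and 1.21 and 1.62), and the dimmest did not pass (0.81 with 11 arrays, adjusted p = 0.127).

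**Figure D4:**
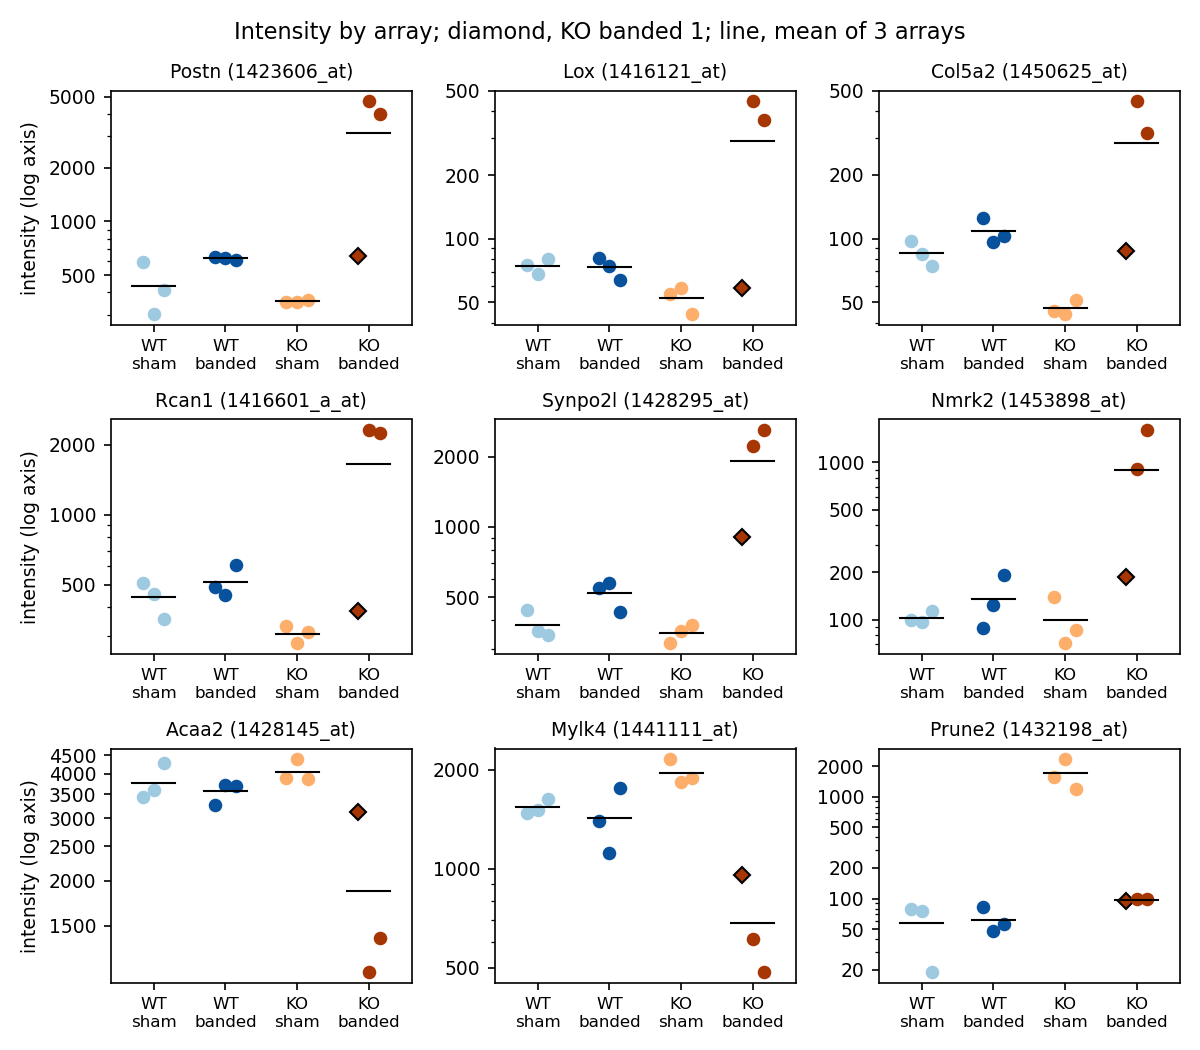
Intensity (log y axis) by array for 9 probe sets in the 4 groups; circles, single arrays; diamond, KO banded 1; horizontal line, mean of the 3 arrays of a group. KO banded 2 and 3 stand apart from the other arrays for Postn, Lox, Col5a2, Rcan1, Synpo2l and Nmrk2, with KO banded 1 low; for Prune2 the KO sham arrays stand apart instead.

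Synpo2l, Enah, Actn1 and Ankrd2, which do not share a list either, were picked for mention after their calls were seen. Synpo2l, an actin-binding Z-disc protein, read 439, 358 and 346 in WT sham, 546, 576 and 434 in WT banded, 318, 357 and 381 in KO sham and 906, 2220.4 and 2597 in KO banded. All 3 KO banded arrays were above the other 9, and KO banded 1 lay 48.9% of the way from KO sham to the other KO banded arrays. Its difference was 1.83 (SE 0.42, adjusted p = 0.454) and 2.29 (SE 0.19, adjusted p = 0.0012). The brightest of its other probe sets had 1.01 and 1.30 and did not pass, another had -0.29 and 0.87, and the dimmest -0.07 and 0.02. Enah, an actin-filament elongation protein, was called with 4 of 6 probe sets, at 0.97 to 1.76 with 11 arrays, and the others had 0.02 and 1.08. Actn1, the non-muscle alpha-actinin, was called with 1 of 3 (0.67 and 0.93), and Ankrd2, a stretch-responsive ankyrin protein of muscle, with its only one (1.03 and 1.32). Ankrd1, its cardiac relative, differed by 0.18 (SE 0.27) at its brightest probe set and by 0.47 (SE 0.34) at another, both with 12 arrays and neither called.

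Mylk4, a myosin light chain kinase of the heart, had the lower banding effect in KO and read 1479, 1508 and 1637 in WT sham, 1404, 1121 and 1761 in WT banded, 2157, 1842 and 1891 in KO sham and 957, 612 and 486 in KO banded. All 3 KO banded arrays were below the other 9, KO banded 1 included. Its difference was -1.42 (SE 0.30, adjusted p = 0.454) and -1.69 (SE 0.22, adjusted p = 0.014). Ccdc141 had the second smallest p of all probe sets with 12 arrays and read 630.4, 584 and 542 in WT sham, 594, 535 and 618 in WT banded, 739, 787 and 717 in KO sham and 438, 344 and 339 in KO banded. KO sham was the highest group, KO banded the lowest, and the WT groups overlapped. Its difference was -0.97 (SE 0.15, adjusted p = 0.454) and -1.09 (SE 0.13, adjusted p = 0.00951), and its other 5 probe sets were negative too, from -0.55 to -0.79 with 12 arrays. Of the 18 sarcomere genes listed, 17 had the lower banding effect in KO by value, with a median of only -0.19, 1 had an unadjusted p under 0.05 with 12 arrays (3.29% of all genes did, in that direction), and 1 was called without KO banded 1, Mylk4 (0.22% of all genes).

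Fatty acid oxidation genes mostly had the lower banding effect in KO. Of 25 measured genes of 27 listed, 22 were lower by value with 12 arrays and 4 had an unadjusted p under 0.05, all lower, where 3.29% of all genes did. The median was -0.35, and -0.53 with 11 arrays, where 14 had an unadjusted p under 0.05 in the lower direction (5.73% of all genes) and 2 were called (0.22%). Acaa2, which cuts the acyl chain in the last step of mitochondrial beta-oxidation, read 3438, 3599 and 4269.5 in WT sham, 3266, 3726 and 3702 in WT banded, 3876, 4389.8 and 3859 in KO sham and 3125, 1111 and 1383 in KO banded. KO banded 2 and 3 were below every other array and KO banded 1 just below WT banded. Its difference was -1.17 (SE 0.40, adjusted p = 0.564) and -1.61 (SE 0.19, adjusted p = 0.00899), and its other 2 probe sets were called as well (-1.39 and -1.30 with 11 arrays). Cpt2, the carnitine palmitoyltransferase of the inner mitochondrial membrane, read 2187, 2319 and 2405 in WT sham, 2342, 2396 and 2065 in WT banded, 2451, 2524 and 2435 in KO sham and 2337, 1144 and 1499 in KO banded, and differed by -0.61 (SE 0.27, adjusted p = 0.669) and -0.88 (SE 0.17, adjusted p = 0.049). Ppargc1a, the coactivator PGC-1alpha that raises mitochondrial genes, was called with 1 of 5 probe sets (-1.10 (SE 0.36, adjusted p = 0.564) and -1.43 (SE 0.27, adjusted p = 0.049)) and not with its brightest (-0.51 (SE 0.25, adjusted p = 0.693) and -0.75 (SE 0.16, adjusted p = 0.0741)). Ppara, the fatty acid receptor that acts with it, differed by -0.87 (SE 0.28, adjusted p = 0.564) and -1.03 (SE 0.27, adjusted p = 0.136).

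Ivd, Mmut and Mccc2, enzymes that break down branched-chain amino acids or their products, were each called lower with 1 probe set. They were picked for mention after their values were seen. Ivd, isovaleryl-CoA dehydrogenase of the leucine pathway, read 1588, 1531 and 1563 in WT sham, 1615, 1509.5 and 1538 in WT banded, 1649, 1641 and 1442 in KO sham and 1362, 723 and 855 in KO banded. Only KO banded 2 and 3 were clearly low, and KO banded 1 was just under every other array. Its difference was -0.72 (SE 0.25, adjusted p = 0.564) and -0.98 (SE 0.14, adjusted p = 0.0149). A second, slightly brighter Ivd probe set had -0.49 and -0.90 (adjusted p = 0.0843 with 11 arrays) and did not pass. Mmut, methylmalonyl-CoA mutase, differed by -0.92 (SE 0.23, adjusted p = 0.522) and -1.13 (SE 0.17, adjusted p = 0.0187), and Mccc2, a subunit of methylcrotonyl-CoA carboxylase, by -0.84 and -1.07 with 1 called probe set of 3. The other Mmut probe sets did not pass, with -0.50 (adjusted p = 0.214) and, at a much dimmer one, -0.67 (adjusted p = 0.75), both with 11 arrays. In the respiratory chain list, all 31 measured had the lower effect in KO by value, with a median of -0.25 in both fits, 2 with an unadjusted p under 0.05 with 12 arrays (3.29% of all genes), and 0 called. Since ventricular markers moved alike by value (all 10 lower, median -0.19), the part of cell makeup in the respiratory chain values was not tested. In glycolysis, Pfkp, the platelet-type phosphofructokinase, was called higher and read 398, 329 and 341 in WT sham, 345, 417 and 386 in WT banded, 390.4, 324 and 337 in KO sham and 343, 1054 and 1242 in KO banded. Its difference was 1.003 (SE 0.48, adjusted p = 0.685) and 1.57 (SE 0.17, adjusted p = 0.00469), with 2 of its 3 probe sets called, while the list's median was -0.14 with 12 arrays. Slc2a4, the insulin-sensitive glucose transporter GLUT4, was on the lower side at -0.53 (SE 0.21, adjusted p = 0.631) with 12 arrays.

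Ion channel genes leaned to the lower side. Of 18 measured potassium and sodium channel genes of 21 listed, 15 were lower by value, with a median of -0.51, and 6 had an unadjusted p under 0.05, all lower, where 3.29% of all genes did. With 11 arrays 7 did (5.73% of all genes), and 1 was called (0.22%). Kcnh2, the channel of the rapid delayed rectifier current, read 507, 524 and 681 in WT sham, 504, 414 and 453 in WT banded, 734, 694 and 859 in KO sham and 383, 258 and 229 in KO banded. All 3 KO banded arrays were below the other 9, and KO sham was above WT sham. Its difference was -1.07 (SE 0.24, adjusted p = 0.454) and -1.28 (SE 0.19, adjusted p = 0.0187), and it is that call. Kcnj5 and Kcnj3, subunits of the acetylcholine-activated potassium channel found mostly in atria, did not pass: Kcnj5 had -1.21 (SE 0.40, adjusted p = 0.564) and -1.56 (SE 0.32, adjusted p = 0.0642), and Kcnj3 had -1.32 (SE 0.57, adjusted p = 0.668) and -1.75 (SE 0.50, adjusted p = 0.177). The atrial marker sum was 9799 in KO banded 1, 3657 and 4845 in KO banded 2 and 3 and 958.8 to 20090 in KO sham, and its part in the values of these subunits was not tested. Calcium handling genes had a median of -0.24, 14 of 15 lower by value, 3 with an unadjusted p under 0.05 with 12 arrays (3.29% of all genes), and 0 called. Cacnb2, a calcium channel subunit, was the smallest in p there, with -0.53 (SE 0.11, adjusted p = 0.454) and -0.54 (SE 0.12, adjusted p = 0.083) for the brighter of its 2 probe sets, and -0.64 and -0.63 for the other.

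Clock genes had the most negative median of the 18 pathway lists in both fits, and the sham groups differed as well. Over 18 measured genes of 19 listed the median was -0.65 and -0.82, with 0 called among the probe sets that represent a gene. With 12 arrays 4 genes had an unadjusted p under 0.05 with the lower effect in KO and 1 with the higher, and with 11 arrays 9 and 2, beside 3.29% and 4.42%, then 5.73% and 6.16%, of all genes. Dbp, a clock output factor, read 386, 128 and 1355 in WT sham, 277, 926 and 347 in WT banded, 1073, 1444 and 1253 in KO sham and 1011, 118 and 172 in KO banded. KO sham and KO banded 1 were high together, KO banded 2 and 3 low, and WT sham spread from 128 to 1355. Its difference was -2.21 (SE 1.15, adjusted p = 0.706) and -3.11 (SE 0.98, adjusted p = 0.225). Per3, a period protein, had 6 probe sets, and 1 was called, the second brightest, which read 60.6, 60.3 and 143 in WT sham, 82.6, 146 and 97.7 in WT banded, 221, 171 and 265 in KO sham and 143, 37.3 and 36.4 in KO banded. Its difference was -1.93 (SE 0.58, adjusted p = 0.564) and -2.45 (SE 0.43, adjusted p = 0.0372). The brightest had -1.45 and -1.95 (adjusted p = 0.0522 with 11 arrays), and of the 4 dimmer ones 3 were negative, at -0.80 to -1.75 with 12 arrays, and the dimmest had -0.03 and 0.08. Arntl, which encodes the activator BMAL1 and peaks opposite to those genes, had the opposite sign at 1.83 (SE 0.81, adjusted p = 0.669) and 2.45 (SE 0.70, adjusted p = 0.173) and read 187, 282 and 53.5 in WT sham, 211, 76.5 and 138 in WT banded, 42.2, 48.4 and 24.8 in KO sham and 57.6, 284 and 225 in KO banded. The median of KO minus WT was 0.48 in sham hearts and -0.41 in banded hearts without KO banded 1.

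Early response genes varied widely among hearts of one group. Of 24 genes, 0 had an unadjusted p under 0.05 with 12 arrays, with a median of 0.34. With 11 arrays the median was 0.49 and 3 had, all higher (6.16% of all genes), with 0 called. Fos, an AP-1 subunit, read 40.6, 631 and 1644 in WT sham, 697, 2744 and 894 in WT banded, 108, 70.5 and 38.8 in KO sham and 63.1, 1072 and 974 in KO banded, with very unlike values inside WT sham and KO banded, and its difference was 0.77 (SE 1.65, adjusted p = 0.945) and 2.01 (SE 1.44, adjusted p = 0.674). Inflammatory mediators had a median of -0.11 and 0.01, with 0 of 23 called. In the interferon list, the median was -0.22 with 12 arrays and 1 of 19 genes was called without KO banded 1 (0.22% of all genes, lower). It was Iigp1, an interferon-induced GTPase, which read 1421, 1144 and 869 in WT sham, 1423, 1827 and 1765 in WT banded, 1144, 1618 and 1098 in KO sham and 975, 592 and 472 in KO banded. The groups moved in opposite directions by value, and its difference was -1.51 (SE 0.35, adjusted p = 0.454) and -1.80 (SE 0.29, adjusted p = 0.0263). Aplnr, the apelin receptor, read 2031, 707 and 393 in WT sham, 854, 625 and 420.5 in WT banded, 829, 532 and 1012 in KO sham and 868, 1756 and 1143 in KO banded and differed by 1.08 (SE 0.69, adjusted p = 0.761) and 1.31 (SE 0.73, adjusted p = 0.554), with the arrays of WT sham spread over a wide range. The difference for Apln itself was 1.23 (SE 0.36, adjusted p = 0.561), and 0.94 (SE 0.30, adjusted p = 0.235) without KO banded 1, the KO array in which Apln was highest.

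**Figure D5:**
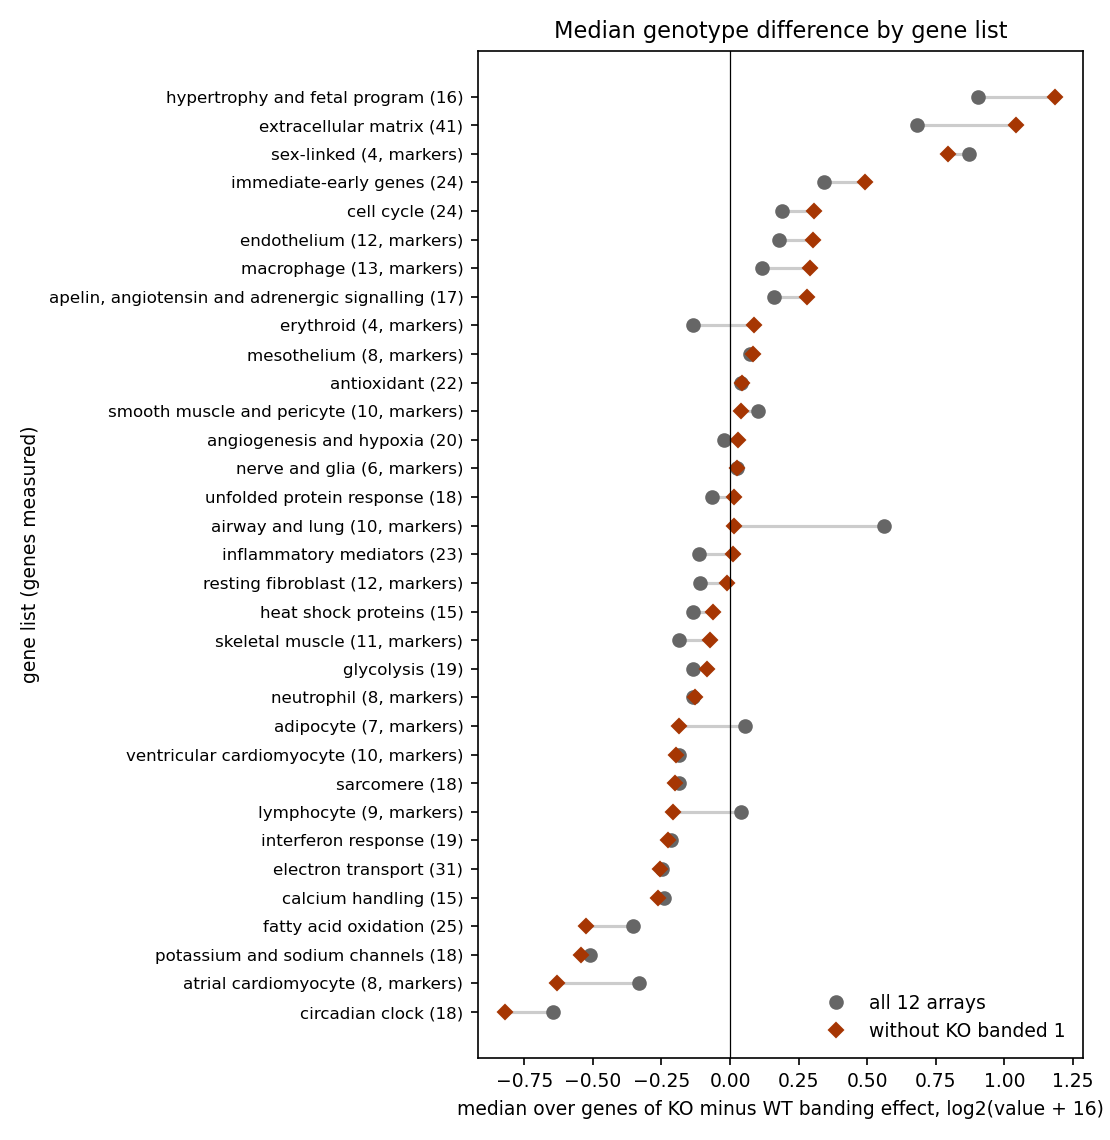
Median over the measured genes of each list (y axis, number of genes in brackets) of the KO minus WT banding effect (x axis, log2(intensity + 16) scale); grey circles, all 12 arrays; brown diamonds, without KO banded 1. Of the pathway lists, hypertrophy (0.90 and 1.19) and matrix (0.68 and 1.04) have the highest medians and the clock list (-0.65 and -0.82) the lowest; of the marker lists, the 4 sex-linked genes have 0.87 and 0.80, and the airway list falls from 0.56 to 0.01 without KO banded 1.

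Some probe sets had arrays that did not overlap between banded and sham in either genotype, with opposite directions. Among the 20967 brighter probe sets, 65 had all 3 KO banded arrays above all 3 KO sham arrays and all 3 WT banded arrays below all 3 WT sham arrays, and 62 had the reverse (0.31% and 0.296%). Taken alone, KO banded was above KO sham without overlap for 2370 (11.3%) and below for 2689 (12.8%), and WT banded above WT sham for 899 (4.29%) and below for 1246 (5.94%). Banded was above sham in both genotypes for 213 and below in both for 265. With 12 arrays, neither the 65 nor the 62 held a probe set that passed the adjusted test of the difference, and without KO banded 1 2 of the 65 and 5 of the 62 did (0.484% of all). The 65 and 62 were picked in these same arrays for moving in opposite directions, which favours a large difference. A share of calls above that of all probe sets therefore follows from the choice. Gtf2b, the general transcription factor TFIIB, read 455, 434 and 371 in WT sham, 303, 285 and 279 in WT banded, 321, 406 and 344 in KO sham and 444, 439 and 407 in KO banded. Its difference was 0.77 (SE 0.15, adjusted p = 0.454), and it was about as large without KO banded 1 (0.75 (SE 0.16, adjusted p = 0.0728)). Clk2, a kinase of splicing factors, read 239, 213 and 213 in WT sham, 289, 293 and 289.5 in WT banded, 251, 265 and 274 in KO sham and 203, 222 and 202 in KO banded. The arrays of each group lay close together, and its difference was -0.68 (SE 0.12, adjusted p = 0.454) and -0.66 (SE 0.13, adjusted p = 0.0522). Lrtm1, a leucine-rich repeat membrane protein, read 1187, 1618 and 1415 in WT sham, 1875, 1779.5 and 1973 in WT banded, 1773, 1848 and 1666 in KO sham and 1229.8, 1263 and 1242 in KO banded, with -0.92 (SE 0.15, adjusted p = 0.454) and -0.91 (SE 0.16, adjusted p = 0.0439). Pik3r1, the regulatory subunit of phosphoinositide 3-kinase, read 415, 408 and 611 in WT sham, 457, 529 and 513 in WT banded, 464, 595 and 540.2 in KO sham and 271, 259 and 253 in KO banded, and its WT arrays overlapped. All 4 of its probe sets were on the lower side with 12 arrays (-1.06, -1.32, -0.89 and -1.32).

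Some of these genes had probe sets that disagreed. Ube2g1, a ubiquitin-conjugating enzyme, differed by 0.58 with the probe set named by size of p and by 0.05 with its much brighter one. Samhd1, a nucleotide hydrolase, differed by -1.75 and -1.26 with 2 probe sets and by -0.21, -0.02 and -0.30 with 3 others. Prune2 showed the widest split. Its probe set of smallest p read 79.6, 75.1 and 19.01 in WT sham, 82.3, 47.9 and 56.4 in WT banded, 1573, 2338 and 1179 in KO sham and 95.1, 98.3 and 99.5 in KO banded. KO sham alone was high, and all 3 KO banded arrays were slightly above the WT arrays. The difference was -4.05 (SE 0.49, adjusted p = 0.0765), with a 95% interval of -5.11 to -2.99, and -4.03 (SE 0.53, adjusted p = 0.0139) with 11 arrays. The brightest Prune2 probe set went the other way, with banding effects of 1.28 in KO and 0.28 in WT, and the other 2 differed by -0.37 and 0.30. Which transcript each probe set reads was not analysed here.

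A few wide differences with 12 arrays did not follow the groups. Scgb1a1, a secreted protein of airway club cells, had the widest difference in the higher direction among the brighter probe sets with 12 arrays, 2.72 (SE 1.30), and read 1094 in KO banded 1 against 1.93 to 49.8 in the other 11 arrays. Zfp30 and Bmp10 had -3.77 and -2.27 with 12 arrays. Bmp10, a growth factor made in atrial muscle, read 11.5, 13.7 and 50.7 in WT sham, 332, 24.1 and 58.1 in WT banded, 11.99, 163 and 221 in KO sham and 68.3, 9.05 and 79.6 in KO banded, which followed no group. Steap2, a metalloreductase, was the called gene with the widest WT fall: it read 43.9, 47.8 and 68.7 in WT sham, 8.89, 9.52 and 28.7 in WT banded, 7.07, 11.02 and 8.76 in KO sham and 10.1, 52.2 and 53.03 in KO banded, so that WT sham and KO banded 2 and 3 were the high arrays, and it differed by 2.17 (SE 0.50, adjusted p = 0.454) and 2.63 (SE 0.36, adjusted p = 0.0147).

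The labels call the arrays of a group biological replicates without saying that each is a separate mouse, so the p-values measure the spread between these samples. The 3' to 5' signal ratio of the actin control, a sign of RNA integrity and labelling, was -0.196 (log2) in KO banded against 0.152 in KO sham, 0.15 in WT banded and 0.0907 in WT sham, and KO banded 1 (-0.197) was like its group. The same ratio of the Gapdh control was alike in the groups (-0.333 in KO banded and -0.357 to -0.367 in the others). The part of this in the differences was not tested.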

How the data were processed

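Per the labels, mouse heart RNA was prepared with Trizol, biotin-labelled and hybridised to 12 Affymetrix arrays. The authors deposited 1 linear intensity per probe set and array, with software and scaling unstated in the labels and file headers. The mean of each array, leaving out 2% of the values at each end, was 150, so no further scaling was applied. Control probe sets (64), probe sets with several genes (932) and unlisted ones (9160) were left out of the fit, which leaves 34945 probe sets of 18193 genes. Of these, 34741 matched RefSeq by Entrez number.

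Intensities were taken as log2(intensity + 16); 25.8 to 29.8% of the values of an array were below that pseudocount, where fold changes are understated. The 4 group means were estimated with limma 3.58.1 under R 4.3.3, using eBayes with its trend option, 8 residual degrees of freedom (7 with 11 arrays), two-sided tests and Benjamini-Hochberg adjustment over all 34945. "Called" means an adjusted p under 0.05. The procedure was tested on simulated data. Arrays give no depth, so their number limits the precision.

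A gene in a list is represented by its probe set of highest mean; the 33 lists hold 534 genes, of which 493 were measured. The genes named are the 12 of smallest p in each direction and the 5 of largest difference in each direction among the brighter 60% of probe sets, up to 3 genes of smallest p in each list, and 20 load-response genes. The 15 of smallest p in each direction without KO banded 1, and other genes called there, were added after values were seen. The members, lists and rules were chosen with earlier results of these data known. Same-numbered arrays did not deviate together (correlations -0.208 to 0.224 over 18 pairs), so no pairing was used.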

Additional observations from a re-analysis of the deposited data

Results flagged for a closer look

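Of the genes named, 14 had KO banded and KO sham arrays that did not overlap, WT banded and WT sham arrays that did not overlap, and the opposite direction in each genotype. The difference itself did not pass the adjusted test with 12 arrays for any of them. With the higher banding effect in KO (log2 scale) these were Gtf2b (0.77), Ube2g1 (0.58), 1700037H04Rik (1.17), Gpc4, a cell-surface proteoglycan (0.74), Vegfc, a growth factor of lymphatic vessels (0.93), and Ccnb2, a mitotic cyclin (0.78). With the lower effect in KO these were Lrtm1 (-0.92), Clk2 (-0.68), Samhd1 (-1.75), Ppp1r3b, a glycogen-targeting subunit of protein phosphatase 1 (-0.96), Cacnb2 (-0.64, the dimmer of its 2 probe sets), Osbpl3 (-1.12), Uqcrc2, a core subunit of respiratory complex III (-0.59), and Iigp1 (-1.51). Most of the named genes were picked for small p-values of this same difference, so this number supports nothing by itself. Other probe sets of 1700037H04Rik (-0.06 and -0.36) and Osbpl3 (0.04 and 0.37) did not share the direction, while the second of Uqcrc2 (-0.52) and both others of Vegfc (0.95 and 0.77) did.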

How the results depend on the processing

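The count of 0 called differences with 12 arrays became 1 with a pseudocount of 64, in the upper 60% of probe sets, with robust eBayes and with array weights, 106 with airway and adipocyte scores as covariates, and 52 without KO banded 1 and WT banded 3. Leaving out single arrays gave 0 to 169. It stayed at 0 in the other settings tried, the replicate block included (0). The 169 called without KO banded 1 became 317 in the upper 60%, 97 with median scaling, 43 without a variance trend and 74 with the airway and adipocyte scores; leaving out a further array gave 37 to 239, and these settings were chosen after seeing the data. All of the 169 that were tested kept their sign in each setting. These fits share most of their arrays with the fit that chose the 169, which favours the same sign. With the replicate block 178 were called, 118 of them shared. For banding within KO, the 233 called became 140 with a pseudocount of 64, 502 in the upper 60%, 74 with median scaling, 6 without a trend, 1594 with array weights, 20 with the replicate block, 93 with an atrial score, 1694 with airway and adipocyte scores and 1653 without KO banded 1 and WT banded 3; leaving out single arrays gave 2 to 1735. Within WT, a pseudocount of 1 gave 2 and every other setting 0. Directions turned in 7 named genes, none of them called. Nppa, -0.15, became 0.0024 with quantile normalization and 0.25 with airway and adipocyte scores. Leaving out single arrays, Nppa ranged from -0.71 to 0.58, Nppb from -0.15 to 0.75, Acta1 from -0.11 to 0.76, Myh6 from -0.45 to 0.054, Atp2a2 from -0.49 to 0.0086, Fos from -0.27 to 2.17 and Egr1 from -0.00029 to 2.05. Over 76 named genes and 1952 alternatives, 1831 kept direction and side of the threshold, 110 newly passed and 11 turned. The cause of these changes was not tested. Quantile, median and 75th percentile scaling moved the median difference over all probe sets from 0.01 to 0.0094, 0.013 and 0.013. Arrays dim for a probe set limit it: values near 16 carry little of a fold.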

Other observations

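Of the 10092 probe sets that the annotation gives several genes or none, 0 were called with 12 arrays (smallest adjusted p 0.403, limma) and 616 had an unadjusted p under 0.05. Without KO banded 1, 3 were called (smallest adjusted p 0.00355), an alternative added after seeing the data.

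Several smaller groups of genes were described by no comparison above. Of 22 antioxidant genes, 2 had an unadjusted p under 0.05 with the higher banding effect in KO with 12 arrays: Sod3, the extracellular superoxide dismutase (0.80), and Gsr, glutathione reductase (0.42), with a list median of 0.04. The share of all genes was 4.42%, and with 11 arrays 3 antioxidant genes had the higher and 2 the lower effect at that threshold (6.16% and 5.73% of all genes). Of 24 cell cycle genes, 16 were higher by value (median 0.19 and 0.30 without KO banded 1) and 0 were called. Of 20 genes of angiogenesis and hypoxia, Vegfc was called without KO banded 1 (1.08, adjusted p = 0.049; 0.335% of all genes were called higher), Hif1a had 0.94 (adjusted p = 0.0717), and Angpt1, a ligand that steadies vessels, had -1.72 (adjusted p = 0.11), with a list median of -0.02 and 0.03. Heat shock genes (median -0.13 and -0.06) and genes of the unfolded protein response (-0.07 and 0.02) had 0 called in either fit.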
